A study of Mus musculus with 24 samples.

Results

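The comparison described here sets A/A against S/S mouse lung adenocarcinoma cells in which Chchd10 had been knocked down in both, and it was chosen by the labels alone: 4 A/A siChchd10 libraries against 4 S/S siChchd10 libraries, 8 of the 24 libraries of the series. All autosomal genes were taken, which are 37564 of the 39310 genes in the table, and 16548 of them passed the filter on low counts and were tested. S/S cells carry the normal serine in eIF2α, and A/A cells carry alanine in its place on both alleles. Every library is polyA RNA, per the labels, from cultures of primary tumour cells, which a sort had kept for GFP and against CD45. All 8 libraries compared received the small interfering RNA against Chchd10 (siChchd10). Groups were read from the sample titles, because another field names the siChchd10 libraries only by the knockdown. The labels give no tumour driver, age or number of tumours per genotype, so the genotype and the origin of each culture cannot be told apart. Nothing in them says that the 4 libraries within a group are separate cultures, and p-values then measure only the spread between these samples, which may be technical.

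eIF2α is the subunit of the initiation factor eIF2 on which several kinases that sense stress converge. When they phosphorylate the serine, general translation slows while the mRNA of ATF4, a transcription factor of amino acid supply, redox balance and stress genes, is translated more, and this is the integrated stress response. Cells with alanine at that position cannot send this signal. CHCHD10 is a small protein of the mitochondrial intermembrane space that sits with cristae organising proteins, and mutant forms of it are known to start a mitochondrial stress response that runs through ATF4. Lung adenocarcinoma cells often keep some of the alveolar type 2 program led by NKX2-1, and those that lose it can take up gut or liver programs led by HNF4A, CDX2 or PDX1.

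The libraries held between 47487722 and 75409451 counts, and the largest was A/A replicate 4. Levels are CPM (counts scaled to a common library size, with edgeR's TMM factors), and a difference is the log2 of A/A over S/S from edgeR's quasi-likelihood test. A gene is said to be higher or lower in A/A cells where the Benjamini-Hochberg adjusted p over all genes tested was under 0.05. Among 9825 more abundant genes, the 1000 most variable over the 8 libraries were taken. Their first principal component separated the genotypes and held 99.1% of the variance. Such a choice favours genes that differ between the genotypes, so this share is description only. Over the 9825 genes, libraries of 1 genotype differed by a median of 0.0535 to 0.0913 on the log2 scale. Libraries of different genotypes differed by 0.293 to 0.315. By the rule, 11829 autosomal genes (71.5%) differed, 5905 (35.7%) higher and 5924 (35.8%) lower in A/A cells. With a fold of 2 or more asked as well, 3549 genes (21.4%) remained, of which 1583 (9.57%) were higher and 1966 (11.9%) lower. At 4-fold or more, 648 genes (3.92%) were higher and 1025 (6.19%) lower. The genotypes' libraries did not overlap for 10780 genes (65.1%). Most genes named below were chosen from among these, so their separation follows from the naming rule and is given as description only. Because most genes pass the first rule, the counts of gene lists below are given by both rules, and each is to be read against these shares. Counts called among motif-holding genes and by chromosome are by the first rule alone.

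Chchd10 itself (chromosome 10, 75933130 to 75937750 in GRCm38) was lower in A/A cells. Its levels were 6.66, 5.32, 6.31 and 6.75 CPM in the S/S libraries and 1.36, 1.74, 2.04 and 2.13 CPM in the A/A libraries, a log2 difference of -1.77 (SE 0.127, adjusted p = 9.56e-12). All A/A libraries lay below all S/S libraries. With the control siRNA (siControl) the mean was 42.5 CPM in S/S cells and 8.49 CPM in 3 A/A libraries, so the knockdown left the genotypes on different levels. Chchd2, the nearest relative of Chchd10, was higher in A/A cells by 0.59 (SE 0.0515). Eif2s1, the gene of eIF2α (chromosome 12, 78862072 to 78887010), read 179, 197, 213 and 207 CPM in S/S and 215, 228, 221 and 220 CPM in A/A libraries, a difference of 0.15 (SE 0.0484, adjusted p = 0.00728). The 2 groups of Eif2s1 values lay close together without overlapping.

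Atf4 (chromosome 15, 80255184 to 80257545) was lower in A/A cells. Its S/S libraries read 431, 422, 476 and 458 CPM and its A/A libraries 121, 125, 126 and 131 CPM. The log2 difference was -1.83 (SE 0.0475, adjusted p = 2.97e-20), with no overlap. Of 17 genes of eIF2, its exchange factor, its kinases and its phosphatase subunits, 10 were higher and 4 lower in A/A cells, none by 2-fold. Dele1, which carries the mitochondrial stress signal to the kinases, was higher by 0.58, and Eif2ak2, the kinase PKR, was lower by -0.36. Among 20 cytosolic tRNA synthetases, 7 were higher and 6 lower, none by 2-fold, between Hars (0.66) and Vars (-0.57).

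The ATF4-linked stress genes were mostly lower in A/A cells: 13 of 19 were lower and 6 higher, with 7 and 0 at 2-fold or more and a median of -0.49 against -0.01 over all genes. The ATF4-linked amino acid genes were less one-sided, with 12 of 24 lower, 5 higher and a median of -0.16, and 2 members were lower by 2-fold or more. These lists were chosen with earlier results of these data known, so the counts describe the samples and are not independent evidence. Motif matches were sought in RefSeq promoters (GRCm38.p6, from 250 bases before the first listed start to 50 after it), which were found for 12085 of the tested genes. The motif TGATGNAA, bound by ATF4 with a C/EBP partner, was searched on both strands and stood in 295 promoters (2.44%). Of promoters of genes 4-fold or more higher in A/A cells, 13 of 438 held it (2.97%). For genes 4-fold or more lower it was 21 of 732 (2.87%). In the lists, the motif stood in 6 of 20 promoters of the amino acid list (30%) and in 6 of 18 of the stress list (33.3%). Of these 12 genes, 9 were lower in A/A cells, 2 higher and 1 did not pass the test. A match says only that these letters occur in the window.

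The promoters below are shown because they belong to the knocked-down gene and to 3 stress genes with a match, 2 of them lower and 1 higher in A/A cells. Capitals mark TGATGNAA or its reverse complement. The Chchd10 promoter (chr10:75932880-75933179, plus strand) holds the motif 2 times, the first at -85 from its start.
Chchd10: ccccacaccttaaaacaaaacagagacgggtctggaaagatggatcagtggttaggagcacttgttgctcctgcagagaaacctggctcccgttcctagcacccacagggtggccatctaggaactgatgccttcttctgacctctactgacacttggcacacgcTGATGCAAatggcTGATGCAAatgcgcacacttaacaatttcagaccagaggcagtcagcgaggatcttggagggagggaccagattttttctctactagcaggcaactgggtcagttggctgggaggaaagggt
Chac1 (chr2:119350992-119351291, plus strand): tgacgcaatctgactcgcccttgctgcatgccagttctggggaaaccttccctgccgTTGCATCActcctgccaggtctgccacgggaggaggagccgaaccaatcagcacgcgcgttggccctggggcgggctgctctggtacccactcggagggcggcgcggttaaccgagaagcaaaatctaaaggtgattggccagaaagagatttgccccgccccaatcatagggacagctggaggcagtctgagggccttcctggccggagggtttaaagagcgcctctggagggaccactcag
Fgf21 (chr7:45615441-45615740, minus strand): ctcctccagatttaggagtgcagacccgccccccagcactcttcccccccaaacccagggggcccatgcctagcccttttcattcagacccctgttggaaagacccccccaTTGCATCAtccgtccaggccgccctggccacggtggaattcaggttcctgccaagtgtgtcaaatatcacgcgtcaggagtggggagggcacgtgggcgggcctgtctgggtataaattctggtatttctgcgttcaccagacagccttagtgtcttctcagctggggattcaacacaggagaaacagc
Herpud1 (chr8:94386179-94386478, plus strand): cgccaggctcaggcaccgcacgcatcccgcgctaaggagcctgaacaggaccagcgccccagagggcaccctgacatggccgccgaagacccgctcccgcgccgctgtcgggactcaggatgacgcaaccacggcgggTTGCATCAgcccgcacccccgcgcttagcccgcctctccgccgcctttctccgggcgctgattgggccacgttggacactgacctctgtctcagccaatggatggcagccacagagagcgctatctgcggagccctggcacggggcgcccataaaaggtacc
The match lies at -193 in Chac1, at -139 in Fgf21 and at -112 in Herpud1, in each case on the opposite strand to the gene.

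Fgf21, a hormone that stressed mitochondria release, was at 1.64, 1.25, 2.12 and 1.4 CPM in S/S libraries and at 0.0405, 0.0194, 0.0425 and 0.0519 CPM in A/A libraries. The A/A values rest on 9 counts in all, and the difference was -5.25 (SE 0.333, adjusted p = 1.03e-12). Chac1, which degrades glutathione, was at 41.1, 37.1, 39.1 and 42.2 CPM in S/S and at 13.9, 14.7, 14.8 and 12.1 CPM in A/A libraries, a difference of -1.53 (SE 0.0634). Both genes were separate between the genotypes. Trib3, a pseudokinase that restrains ATF4, was lower (-1.37, SE 0.0531), Atf3, another stress transcription factor, at -1.81 (SE 0.0991), and Cebpb, a partner of ATF4, at -1.98 (SE 0.0557). Herpud1, which takes part in degradation of proteins from the endoplasmic reticulum, went the other way: 100, 95.4, 90.6 and 96 CPM in S/S and 166, 180, 173 and 158 CPM in A/A libraries (0.83, SE 0.046). Gdf15, a secreted stress cytokine, was also higher (0.94, SE 0.0466), as was Nupr1, a stress-induced nuclear protein (0.51, SE 0.067).

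Among amino acid genes, Bcat1, which transaminates branched-chain amino acids, was lower (-1.62, SE 0.0716) and Cth, which makes cysteine from cystathionine, at -1.45 (SE 0.0608). Asns, asparagine synthetase, read 257, 254, 289 and 280 CPM in S/S and 205, 213, 214 and 199 CPM in A/A libraries, a difference of -0.38 (SE 0.0473) with no overlap. Psat1, of serine synthesis, was higher by 0.43 (SE 0.0483) and Gpt2, mitochondrial alanine transaminase, by 0.70 (SE 0.0405). Members of this list were thus found on both sides.

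**Figure D1:**
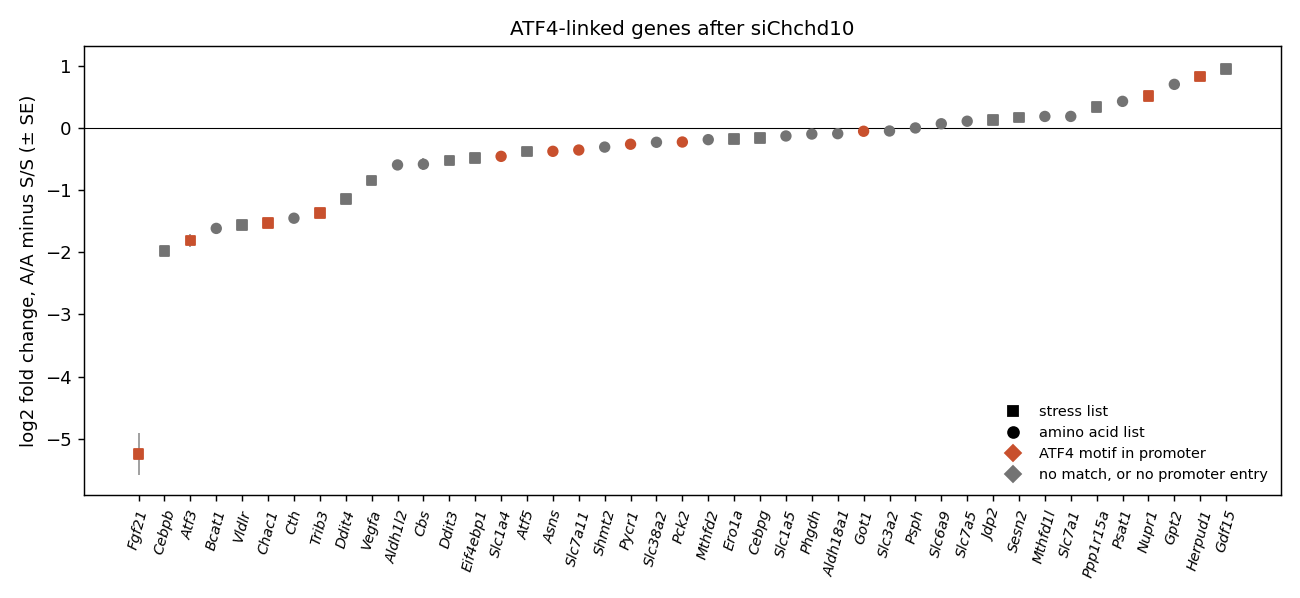
Log2 fold change of A/A over S/S (± SE, 4 libraries each) for the 43 tested genes of the ATF4-linked stress (squares) and amino acid (circles) lists, with genes whose promoter holds TGATGNAA in orange. Fgf21 lies lowest at -5.25 and Gdf15 highest at 0.94.

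Endoplasmic reticulum chaperones and stress genes answer to the unfolded protein response, which has an eIF2 arm and arms that do not run through eIF2. In A/A cells 19 of 21 were higher and 0 lower, and none reached 2-fold. Their median was 0.39, and their summed level was 8610 to 9073 CPM in A/A and 6485 to 6916 CPM in S/S libraries. The largest differences were those of Dnajb9 (0.95, SE 0.0487), Dnajc3 (0.79, SE 0.0439) and Dnajb11 (0.69, SE 0.0453), co-chaperones of the Hsp70 protein BiP. Hspa5, the gene of BiP, was higher by 0.49 (SE 0.0482). Xbp1, a transcription factor of this response, differed by 0.08 (SE 0.0436) and did not pass the test (adjusted p = 0.115), whereas without A/A replicate 1 it did (0.11, adjusted p = 0.0299).

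Some of the largest differences by the naming rule, among genes at 20 CPM or more in the higher genotype, were near presence and absence. Serpine2, a serpin that inhibits thrombin (chromosome 1, 79794317 to 79858665), was at 38.8, 39.6, 43.8 and 46.6 CPM in S/S libraries, and in A/A libraries it was at 0 in 3 and 0.0387 CPM in 1. That is 8371 counts against 2 counts, a ratio of 4750 (95% counting interval 1310 to 39200). In the other direction Cd59a, a complement inhibitor on the cell surface (chromosome 2, 104095753 to 104115410), was at 0.083, 0.0596, 0.117 and 0.0826 CPM in S/S and at 19.6, 21.3, 21.6 and 21.3 CPM in A/A libraries. Its difference was 7.90 (SE 0.137). The A/A counts of Serpine2 and the S/S counts of Cd59a (17 in 4 libraries) are low in each of the 8 libraries, so neither stands apart toward the other genotype. In A/A siControl replicate 1, which is not compared here, Serpine2 was at 2.63 CPM against a mean of 0.112 CPM in the other 3 A/A siControl libraries.

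Other genes far lower in A/A cells were Flnc (-8.34, SE 0.0924), the actin crosslinker filamin C, Basp1 (-7.33, SE 0.0791), a membrane protein linked to growth cones, and Slc38a1 (-6.35, SE 0.064), a glutamine carrier. Further such genes were Gatm (-8.28, SE 0.116), of creatine synthesis, Sox12 (-8.31, SE 0.135), a transcription factor, and Lncenc1 (-8.70, SE 0.0951), a long noncoding RNA known from embryonic stem cells. Among genes far higher in A/A cells was Lrp2, the endocytic receptor megalin, at 12.3, 13.6, 12.7 and 11.3 CPM in S/S and 731, 546, 578 and 558 CPM in A/A libraries (5.59, SE 0.11). Cd36, a fatty acid carrier, was higher by 6.26 (SE 0.101), Adh1, an alcohol dehydrogenase, by 6.44 (SE 0.178), and Fmo1, a flavin monooxygenase, by 6.55 (SE 0.129). All of these separated the genotypes.

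**Figure D2:**
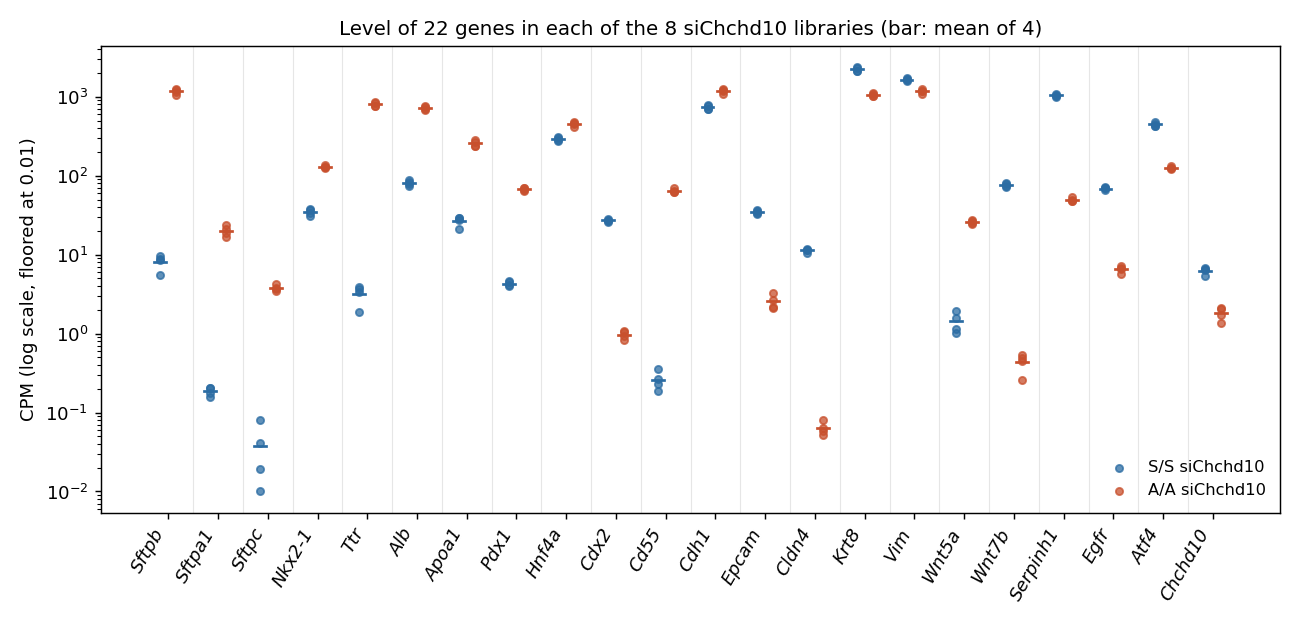
CPM (log axis, values under 0.01 drawn at 0.01) of 22 genes in the 4 S/S siChchd10 libraries (blue) and the 4 A/A siChchd10 libraries (orange), with bars at the group means. For every gene drawn the 2 groups of points do not overlap, from Sftpb (8.1 against 1171 CPM) to Cldn4 (11.3 against 0.0637 CPM).

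The lung label of the cells was checked on alveolar markers. Nkx2-1, the lead transcription factor of lung epithelium (chromosome 12, 56531935 to 56536908), was present in both genotypes, at 37.8, 37.2, 31.1 and 33.4 CPM in S/S and 136, 129, 130 and 125 CPM in A/A libraries (1.90, SE 0.054). Sftpb, a surfactant protein (chromosome 6, 72304610 to 72314373), was at 9.50, 8.80, 5.59 and 8.49 CPM in S/S and at 1160, 1258, 1213 and 1053 CPM in A/A libraries, 145 times the S/S mean (7.18, SE 0.15, adjusted p = 4.23e-11). Sftpc, the surfactant protein that marks alveolar type 2 cells, was at 0, 0.0794, 0.0194 and 0.0413 CPM in S/S, 7 counts in all, and at 3.75, 4.22, 3.66 and 3.50 CPM in A/A libraries (6.65, SE 0.283). Sftpa1 was higher by 6.73 (SE 0.161). Napsa, Lamp3 and Lyz1, other type 2 markers, did not pass the filter on low counts. The lung label thus rested on Nkx2-1 in both genotypes, with surfactant genes near 0 or low in S/S cells.

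Of 17 tested type 2 genes, 11 were higher and 5 lower in A/A cells, 8 and 4 by 2-fold or more, with a median of 0.74. Those that were lower included Il33, an alarmin (-2.91, SE 0.0494), Cxcl15, the lung chemokine lungkine (-2.10, SE 0.206), and Muc1 (-1.03, SE 0.0658). Alveolar type 1 genes went both ways, with 9 of 19 higher and 8 lower, 8 and 4 by 2-fold or more: Ager, the receptor for glycation end products, was higher by 2.85 (SE 0.107), and Cav1 and Cav2, of caveolae, were lower by -1.38 and -1.39. Among 19 lung lineage transcription factors, 13 were higher and 6 lower, but by 2-fold or more 3 were higher and 4 lower. Foxp2 (3.97, SE 0.308) and Gata6 (0.92, SE 0.0502) were higher with Nkx2-1, and Irx3 (-5.97, SE 0.193), Grhl2 (-2.65, SE 0.19) and Sox9 (-1.33, SE 0.055), a factor of distal lung buds, were lower. Muc5b, a secreted airway mucin, was higher by 3.50 (SE 0.22), and Foxj1, the lead factor of ciliated cells, lower (-7.05, SE 0.225).

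Gut and liver factors were also present in both genotypes, with a different make-up. Hnf4a was at 307, 304, 278 and 286 CPM in S/S and at 452, 460, 474 and 418 CPM in A/A libraries (0.62, SE 0.0483). Pdx1, of foregut and pancreas, was at 4.13, 4.67, 3.96 and 4.48 CPM in S/S and at 66.9, 69.5, 69.4 and 64.6 CPM in A/A libraries (3.97, SE 0.0606). Cdx2, of the hindgut and intestine (chromosome 5, 147300900 to 147307249), was the reverse, at 27.1, 25.7, 26.9 and 28.7 CPM in S/S and at 0.831, 0.930, 1.08 and 1.05 CPM in A/A libraries (-4.79, SE 0.0872). None of the 3 genes overlapped between the genotypes. Over the 21 tested factors of the list, 10 were higher and 8 lower, 5 each by 2-fold or more, with a median of 0.00. Of 30 gastric and intestinal differentiation genes, 16 were higher and 10 lower, 12 and 5 by 2-fold or more. Gkn2, a stomach peptide, was higher by 6.90 (SE 0.26), and Ctse, the gastric protease cathepsin E, lower (-2.61, SE 0.16).

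Hox genes, which give position along the body axis, were nearly silent: 7 of 38 passed the filter. Hoxa10 was at 0.0622, 0.0993, 0.0777 and 0.103 CPM in S/S and at 2.23, 2.13, 2.57 and 3.12 CPM in A/A libraries (4.85, SE 0.255). Hoxc6 was the reverse, at 12, 10.2, 7.32 and 8.43 CPM in S/S and at 0, 0, 0.0638 and 0.0519 CPM in A/A libraries (-8.15, SE 0.324). In all 2 were higher and 5 lower in A/A cells, all by 2-fold or more. The median was -7.39 as fitted, and -4.88 with genes at 3 counts or fewer in either genotype placed at a bound set by a floor of 3 counts.

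Plasma protein genes of the liver type were divided, with 15 of 30 higher and 10 lower in A/A cells, 11 and 6 by 2-fold or more, and a median of 0.26. Ttr, the thyroid hormone carrier transthyretin, was at 3.67, 3.38, 1.90 and 3.92 CPM in S/S and at 762, 864, 828 and 765 CPM in A/A libraries (7.97, SE 0.157). Alb, albumin, was at 82.7, 89.6, 73.8 and 79.7 CPM in S/S and at 706, 743, 771 and 686 CPM in A/A libraries (3.16, SE 0.0583). Apoa1, the main protein of high density lipoprotein, was higher by 3.27 (SE 0.105). Apob, the protein of low density lipoprotein, was the reverse, at 1122, 1282, 1150 and 1096 CPM in S/S and at 202, 231, 170 and 145 CPM in A/A libraries (-2.64, SE 0.149, adjusted p = 8.19e-07). Fgg, a fibrinogen chain, was lower (-7.87, SE 0.207). The 4 libraries of each genotype were separate for all 5 genes.

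Serpins, a family of protease inhibitors, were more often lower than higher, at 11 against 6 of 20, and 10 against 5 by 2-fold or more. Serpind1, heparin cofactor 2, was higher by 7.20 (SE 0.136). Serpina1a, an alpha-1 antitrypsin gene, had 0 counts in A/A and 414 in S/S libraries, which makes it at least 156-fold lower against a floor of 3 counts over the group. Serpina1b was lower (-7.91, SE 0.259). These near-identical copies can share reads, so the split between them is uncertain.

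Cytochrome P450, carboxylesterase, UGT and aldehyde-metabolising genes were mostly higher: 43 of 57 tested members were higher and 8 lower, 35 and 5 by 2-fold or more, with a median of 1.66. Their summed level was 1894 to 2116 CPM in A/A and 908.5 to 1055 CPM in S/S libraries. Ces1d, a carboxylesterase, had 1474 counts in A/A and 0 in S/S libraries, at least 433-fold higher against the same floor. Ugt2a3, a glucuronosyltransferase, had 692 counts against 2, a ratio of 305 (84.1 to 2520). Members lower in A/A cells included 2 enzymes that make retinoic acid: Aldh1a2, with 0 counts in A/A and 413 in S/S libraries (at least 156-fold lower), and Aldh1a3 (-2.91, SE 0.109). Gstm1, a glutathione transferase of the mu class, was higher too. It read 253, 237, 198 and 212 CPM in S/S and 3303, 3573, 3530 and 2904 CPM in A/A libraries (3.89, SE 0.0846). Gstp1, of the pi class, was lower (-1.66, SE 0.0466), and over 45 NRF2 and antioxidant genes 17 were higher and 22 lower, but by 2-fold or more 7 were higher and 5 lower.

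Among the P450 genes, 4 of the Cyp2c family hold the HNF4 motif CAAAGTCCA, searched on both strands, in their promoter, of 48 promoters of the list (8.33%) against 57 of 12085 in all (0.472%). They were singled out after their values and matches were seen. The 4 lie on chromosome 19 in 1 family of close copies, so neither their matches nor their values are independent of each other. All 4 were higher in A/A cells, by 2.48 to 5.40, and 3 of the promoters are given here, with the motif in capitals.
Cyp2c65 (chr19:39060756-39061055, plus strand): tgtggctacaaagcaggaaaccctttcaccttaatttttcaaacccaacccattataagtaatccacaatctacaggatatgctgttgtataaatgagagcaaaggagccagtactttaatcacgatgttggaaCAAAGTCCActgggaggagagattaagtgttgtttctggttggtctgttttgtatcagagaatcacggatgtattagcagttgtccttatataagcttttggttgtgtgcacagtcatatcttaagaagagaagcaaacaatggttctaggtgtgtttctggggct
Cyp2c68 (chr19:39741052-39741351, minus strand): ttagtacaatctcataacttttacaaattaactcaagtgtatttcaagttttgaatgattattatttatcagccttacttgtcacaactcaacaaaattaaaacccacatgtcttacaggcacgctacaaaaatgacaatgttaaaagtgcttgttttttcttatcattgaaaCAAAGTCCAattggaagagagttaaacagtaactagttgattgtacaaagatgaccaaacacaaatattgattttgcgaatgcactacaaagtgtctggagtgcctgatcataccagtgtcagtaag
Cyp2c70 (chr19:40187237-40187536, minus strand): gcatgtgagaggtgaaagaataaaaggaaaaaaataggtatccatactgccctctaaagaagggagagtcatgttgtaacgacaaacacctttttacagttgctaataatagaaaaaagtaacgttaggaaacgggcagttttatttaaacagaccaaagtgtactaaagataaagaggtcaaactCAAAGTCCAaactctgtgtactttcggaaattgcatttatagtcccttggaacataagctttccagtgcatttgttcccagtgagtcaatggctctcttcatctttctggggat
The motif starts at -116 in Cyp2c65, at -77 in Cyp2c68 and at -64 in Cyp2c70, on the strand of the gene each time. Cyp2c65 was at 3.13, 3.26, 2.82 and 3.24 CPM in S/S and at 131, 141, 132 and 122 CPM in A/A libraries. Cyp2c68 was at 11, 10.9, 7.96 and 9.58 CPM in S/S and at 52.7, 63.4, 52.4 and 50.8 CPM in A/A libraries. Cyp2c70 was at 1.29, 1.57, 1.28 and 1.18 CPM in S/S and at 7.86, 10.9, 7.65 and 7.07 CPM in A/A libraries. No S/S library reached an A/A library in any of the 3, and reads may be shared within this family of close copies. Over all genes 4-fold or more higher in A/A cells, 7 of 438 promoters held the motif (1.60%), and over those 4-fold or more lower, 4 of 732 (0.546%). The 4 Cyp2c genes singled out above are among these 7, so the first share is not separate from them.

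Complement genes and their regulators were mostly higher, at 16 of 21 with 2 lower, 11 and 2 by 2-fold or more, and a median of 1.44. Cd55, which dissolves the complement convertase, was at 0.270, 0.357, 0.233 and 0.186 CPM in S/S and at 69.8, 64.5, 62.4 and 62.8 CPM in A/A libraries (7.94, SE 0.0992). Hc, complement component 5, was higher by 6.03 (SE 0.0986). C3, the central component, was the reverse, at 308, 289, 216 and 262 CPM in S/S and at 58.7, 57.7, 51 and 42 CPM in A/A libraries (-2.36, SE 0.154, adjusted p = 3.83e-06). Surface inhibitors Cd55 and Cd59a and the substrate C3 thus differed in opposite directions.

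**Figure D3:**
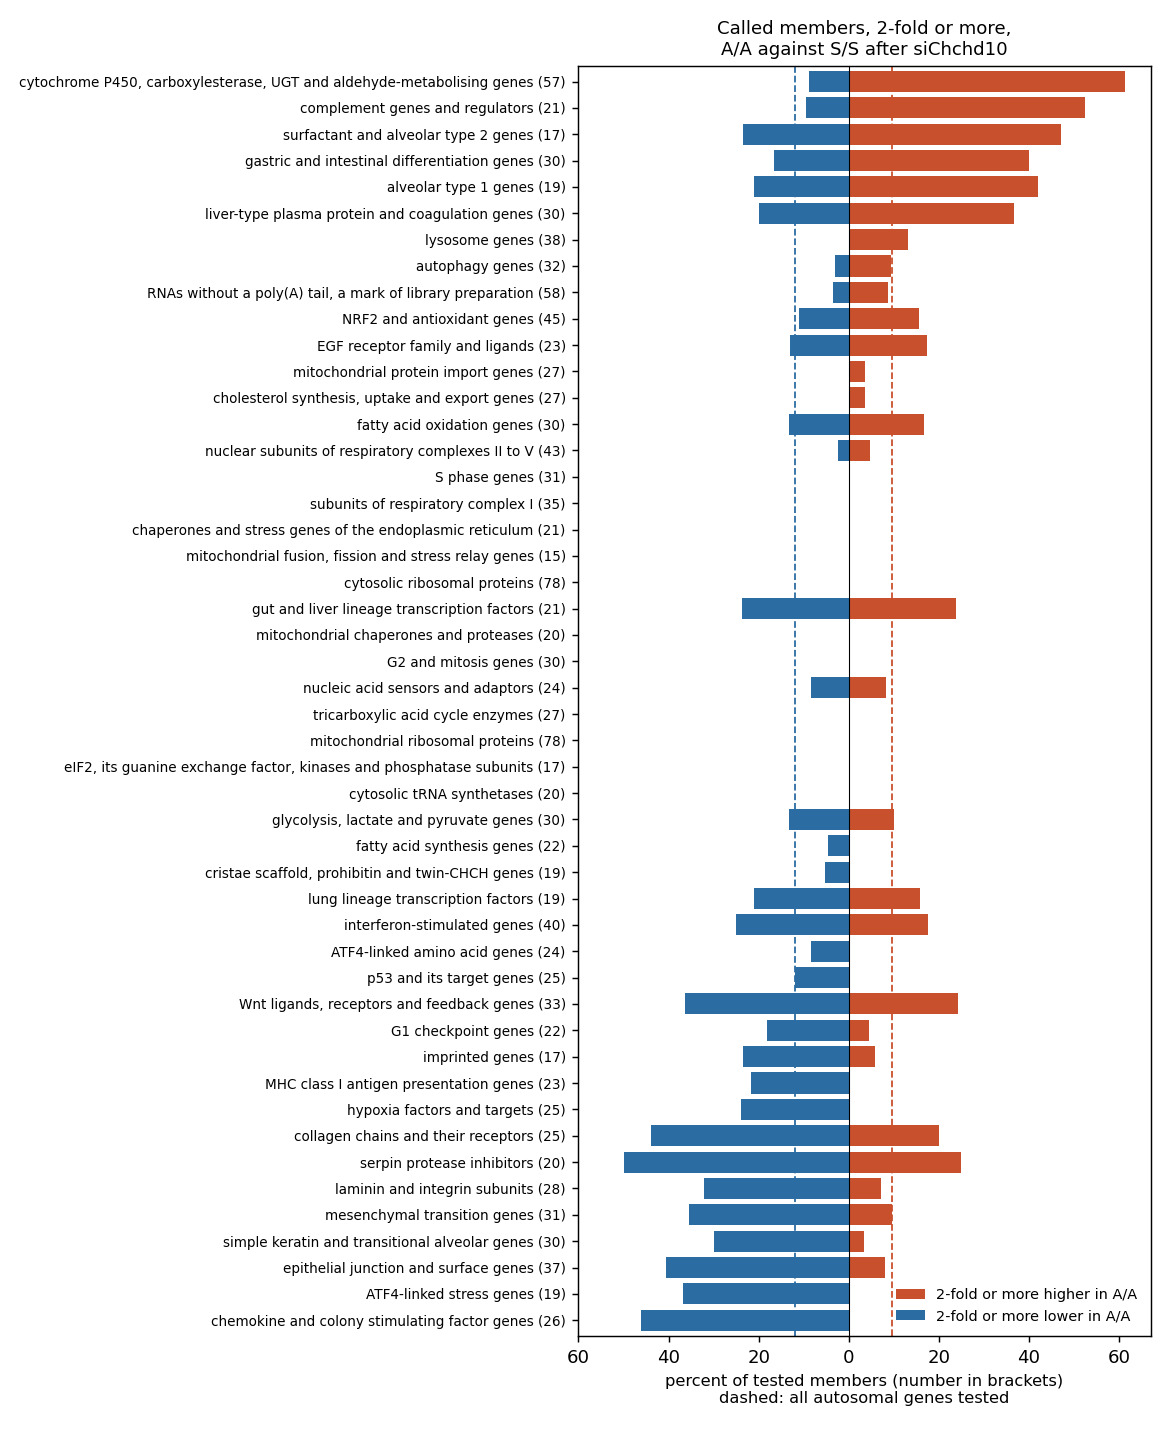
Percent of tested members of each gene list (number in brackets, lists with 15 or more tested) that were called and 2-fold or more higher (orange, right) or lower (blue, left) in A/A cells. Dashed lines mark the same share over all 16548 autosomal genes, 9.57% higher and 11.9% lower.

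Epithelial junction and surface genes were lower in A/A cells in 24 of 37 cases and higher in 12, 15 and 3 by 2-fold or more, with a median of -0.60. Their summed level was nonetheless higher in A/A libraries, at 3949 to 4353 CPM against 3531 to 3726 CPM in S/S libraries. Epcam, an epithelial adhesion molecule (chromosome 17, 87635979 to 87651127), was at 33.2, 33.3, 35.4 and 36.5 CPM in S/S and at 2.13, 3.31, 2.15 and 2.63 CPM in A/A libraries (-3.75, SE 0.0916). Esrp1, the splicing regulator of epithelial cells, had 1113 counts in S/S and 0 in A/A libraries, at least 421-fold lower. Cldn4, a claudin of tight junctions, was lower (-7.45, SE 0.163) and Marveld2, of junctions between 3 cells, at -7.19 (SE 0.123). Cdh1, E-cadherin, picked after its values were seen, was at 772, 780, 710 and 709 CPM in S/S and at 1254, 1204, 1198 and 1091 CPM in A/A libraries (0.68, SE 0.0521). Dsp, desmoplakin of desmosomes, was higher by 1.66 (SE 0.0523). Epcam, Cdh1 and Dsp did not overlap between genotypes, with Epcam on one side and the other 2 on the opposite side.

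Simple keratin and transitional alveolar genes were lower in 19 of 30 cases and higher in 8, 9 and 1 by 2-fold or more. Krt8, keratin 8, was at 2139, 2127, 2294 and 2378 CPM in S/S and at 1012, 1086, 1129 and 1026 CPM in A/A libraries (-1.07, SE 0.0533). Clu, clusterin, was higher by 0.87 (SE 0.0604). Mesenchymal transition genes were lower in 19 of 31 and higher in 7, 11 and 3 by 2-fold or more, with a median of -0.65. Vim, vimentin, was at 1710, 1580, 1705 and 1622 CPM in S/S and at 1190, 1187, 1270 and 1099 CPM in A/A libraries (-0.48, SE 0.0516), without overlap. Snai2, a transition factor, was lower (-2.32, SE 0.177), and Mmp14, a membrane protease, higher by 1.35 (SE 0.0448). Epithelial junction and mesenchymal genes thus were both lower more often than higher in the same libraries.

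Matrix genes were likewise lower more often. Serpinh1, the collagen chaperone HSP47, was at 1024, 990, 1049 and 1098 CPM in S/S and at 49.1, 47.4, 53.7 and 47.3 CPM in A/A libraries (-4.40, SE 0.0569), and the groups were far apart. Among 25 collagen chains and their receptors, 14 were lower and 9 higher, 11 and 5 by 2-fold or more. Their summed level nonetheless overlapped, at 1458 to 1696 CPM in A/A and 1392 to 1530 CPM in S/S libraries. Col5a1 was lower (-6.90, SE 0.143), and the collagen receptor Ddr2 higher by 3.09 (SE 0.0864). Of 28 laminin and integrin subunits, 16 were lower and 9 higher, 9 and 2 by 2-fold or more. They summed to 4820 to 5226 CPM in A/A and 5865 to 6070 CPM in S/S libraries. Among them were Itgb6, which activates TGF-beta (-6.84, SE 0.12), Lama3, a basement membrane laminin (-5.66, SE 0.15), and Itga1, a collagen receptor (2.72, SE 0.0752).

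Wnt ligands, receptors and feedback genes split by ligand. Wnt7b, a canonical ligand of lung epithelium (chromosome 15, 85535437 to 85581821), was at 74.0, 73.0, 77.7 and 79.8 CPM in S/S and at 0.446, 0.542, 0.255 and 0.493 CPM in A/A libraries (-7.42, SE 0.0924). Wnt10a was lower (-8.29, SE 0.104), and Wnt11 had 412 counts in S/S and 0 in A/A libraries, at least 156-fold lower. Wnt5a, a ligand known mostly from noncanonical signalling, was at 1.95, 1.59, 1.01 and 1.16 CPM in S/S and at 27.0, 24.6, 27.5 and 25.2 CPM in A/A libraries (4.19, SE 0.116). The receptors Fzd8 (2.75, SE 0.0941) and Fzd1 (2.27, SE 0.0588) were higher. In all, 16 of 33 were lower and 11 higher, 12 and 8 by 2-fold or more.

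In the EGF receptor family 9 of 23 genes were higher and 10 lower, 4 and 3 by 2-fold or more. Egfr was at 66.0, 71.1, 69.4 and 69.3 CPM in S/S and at 6.87, 7.26, 6.63 and 5.78 CPM in A/A libraries (-3.39, SE 0.0615), a complete separation. The ligands Btc (-1.49, SE 0.0592) and Areg (-1.22, SE 0.0519) were lower, and the ligands Egf (2.46, SE 0.196) and Hbegf (0.78, SE 0.0454) and the feedback inhibitor Spry1 (1.81, SE 0.0522) were higher.

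Genes of the cell cycle differed by less. Ccnd1, cyclin D1, was at 1103, 1086, 1152 and 1189 CPM in S/S and at 428, 453, 458 and 430 CPM in A/A libraries (-1.36, SE 0.0478), and its partner Cdk6 was lower (-1.34, SE 0.0475), both without overlap. The G1 inhibitor Cdkn2b was lower as well (-1.29, SE 0.0441), and cyclin E1, Ccne1, was higher (0.98, SE 0.0687). Of 30 G2 and mitosis genes 22 were lower and 1 higher, and of 31 S phase genes 16 were lower and 7 higher, with medians of -0.26 and -0.14 and none at 2-fold. Among 25 genes of the list of p53 and its targets, Plk2 was the largest (-2.68, SE 0.0666), with 11 lower and 8 higher, 3 and 0 by 2-fold or more.

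Nuclear-encoded respiratory subunits were higher more often than lower, at 18 against 2 of 35 in complex I and 23 against 9 of 43 in complexes II to V, with medians of 0.11 and 0.12. By 2-fold or more, 0 differed in complex I, and 2 were higher and 1 lower in complexes II to V. Atp5a1, a catalytic subunit of ATP synthase, was at 544, 536, 582 and 583 CPM in S/S and at 1095, 1183, 1145 and 1109 CPM in A/A libraries (1.01, SE 0.048). Ndufc1, of complex I, was higher by 0.66 (SE 0.0537), and Cox7a2l, which joins respiratory complexes, lower (-0.87, SE 0.043). With siControl the medians of the same lists were -0.19 and -0.14. Mitochondrial chaperones and proteases divided evenly (7 higher, 6 lower of 20, none by 2-fold). Lonp1, the matrix protease, read 284, 273, 287 and 286 CPM in S/S and 157, 173, 172 and 154 CPM in A/A libraries (-0.78, SE 0.0453), with the A/A libraries all lower. Mitochondrial ribosomal proteins (27 higher, 18 lower of 78), import genes (8 and 9 of 27) and cristae, prohibitin and twin-CHCH genes (5 and 9 of 19) showed no common direction. By 2-fold or more, 0 of the ribosomal proteins differed, 1 import gene was higher, and 1 gene of the cristae list was lower. In the last of these lists, Chchd10 itself differed most, ahead of Chchd2 on the higher side (0.59) and Samm50, the outer membrane insertase, on the lower side (-0.54, SE 0.043). Cytosolic ribosomal proteins, in contrast, were lower in 59 of 78 cases and higher in 8, none by 2-fold and with a median of -0.30.

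In lipid metabolism, fatty acid oxidation genes were higher in 17 of 30 cases and lower in 8, 5 and 4 by 2-fold or more. Acaa2, the last enzyme of the mitochondrial spiral, was higher by 2.04 (SE 0.0487). Pdk4, which closes pyruvate dehydrogenase, was at 18.8, 18.6, 16.1 and 17.0 CPM in S/S and at 0.203, 0.0775, 0.234 and 0.0909 CPM in A/A libraries (-6.93, SE 0.156), and Decr1, an auxiliary oxidation enzyme, was lower (-2.54, SE 0.0584). Fatty acid synthesis and cholesterol genes had medians of -0.05 and -0.04. Glycolysis genes were lower in 18 of 30 and higher in 8, 4 and 3 by 2-fold or more, with Aldoc, an aldolase, at -4.46 (SE 0.184) and Fbp2, of gluconeogenesis, at 4.44 (SE 0.0786). Hypoxia genes were lower in 17 of 25 and higher in 5, 6 and 0 by 2-fold or more, with Car12, a carbonic anhydrase, at -6.48 (SE 0.129).

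Lysosome genes were higher in 25 of 38 cases and lower in 6, 5 and 0 by 2-fold or more, with a median of 0.33. Ctsh, cathepsin H, which processes surfactant proteins, was at 46.1, 48.8, 41.1 and 49.3 CPM in S/S and at 379, 443, 419 and 393 CPM in A/A libraries (3.14, SE 0.061). Lipa, lysosomal acid lipase, was higher by 1.89 (SE 0.0495), and both separated the genotypes. Of 32 autophagy genes 20 were higher and 10 lower, 3 and 1 by 2-fold or more, between Atg12 (1.17, SE 0.0456) and Atg9b (-1.49, SE 0.106).

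Chemokine and colony stimulating factor genes were lower in 18 of 26 cases and higher in 3, 12 and 0 by 2-fold or more, with a median of -0.80. Ccl2, which draws monocytes, was at 39.5, 37.3, 45.4 and 47.6 CPM in S/S and at 2.01, 2.48, 1.66 and 1.56 CPM in A/A libraries (-4.48, SE 0.119). Ccl9 was at 149, 142, 180 and 180 CPM in S/S and at 14.8, 16.2, 16.6 and 16.1 CPM in A/A libraries (-3.35, SE 0.0836). Neither overlapped. Csf3, a granulocyte growth factor, was higher by 0.89 (SE 0.104). MHC class I antigen presentation genes were lower in 13 of 23 and higher in 5, 5 and 0 by 2-fold or more, with Cd1d1, which presents lipids, at -4.62 (SE 0.165), and H2-T23, a nonclassical class I gene, at 0.90 (SE 0.0586). The summed level of this class I list was nonetheless higher in A/A libraries, at 2820 to 3033 CPM against 2328 to 2428 CPM in S/S libraries.

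Interferon-stimulated genes had no common direction, with 14 of 40 higher and 18 lower, 7 and 10 by 2-fold or more. Ifih1, the RNA sensor MDA5, was at 32.8, 31.6, 33.2 and 30.5 CPM in S/S and at 72.2, 73.0, 68.4 and 64.8 CPM in A/A libraries (1.12, SE 0.0487). Ifit2 was higher by 1.58 (SE 0.0619), and Oasl2 (-1.68, SE 0.0879) and Cmpk2 (-2.12, SE 0.149) were lower. The interferon response element, searched on both strands as 2 TTTC runs spaced by any 2 bases, stood in 17 of 29 promoters of the list (58.6%) against 354 of all 12085 (2.93%). Of promoters of genes 4-fold or more higher in A/A cells, 15 of 438 held it (3.42%), and of those lower, 33 of 732 (4.51%). Of the 17 genes with a match, 5 were higher and 8 lower in A/A cells and 4 did not pass the test, so genes with the motif also went both ways.

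Markers of other cell types were looked at beside these results, because sorted cultures can hold other cells. Of 20 leukocyte markers 6 passed the filter on low counts, with a summed level of 75 to 79.4 CPM in A/A and 47.1 to 50.2 CPM in S/S libraries, nearly all of it Cd14, which epithelial cells can also express. Ptprc, the gene of CD45, did not pass. Of 14 fibroblast markers only Col1a1 passed, at a mean of 2.21 CPM in A/A and 5.97 CPM in S/S cells, and Pdgfra and Dcn did not. Of 13 endothelial markers 7 passed, summing to 18.9 to 21.2 CPM in A/A and 27.6 to 35.2 CPM in S/S libraries, and Cdh5 did not. A list meant to hold RNAs without a poly(A) tail, a mark of how libraries were made, summed to 291.1 to 310.0 CPM in A/A and 457.9 to 490.9 CPM in S/S libraries. Most of this sum was H1f0, a linker histone gene whose mRNA is also known with a tail, at a mean of 233 and 410 CPM. Of 58 tested members 5 were higher and 13 lower, 5 and 2 by 2-fold or more, and 40 did not pass the test. The part of these markers and RNAs in the differences above was not tested.

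Differences were unequal over the chromosomes. The median was highest on chromosome 18 (0.41, with 58.2% of its 467 tested genes higher in A/A cells), chromosome 16 (0.33, 59.2% of 519) and chromosome 3 (0.27, 55.3% of 854). It was lowest on chromosome 15 (-0.28, 56.1% of 715 lower), chromosome 1 (-0.24, 52.6% of 1001 lower) and chromosome 4 (-0.17, 47.4% of 1009 lower). The shares over all genes were 35.7% higher and 35.8% lower. In siControl cells the medians of these chromosomes were 0.42, 0.34, 0.30, -0.21, -0.19 and -0.14, from libraries that the siChchd10 comparison does not share. Windows of 25 genes were also taken, neighbours among only those tested genes above a minimum level in at least 1 genotype. Over 420 such windows, medians ran from -0.54 to 0.83. Copy number was not measured, and its part in the differences was not tested.

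**Figure D4:**
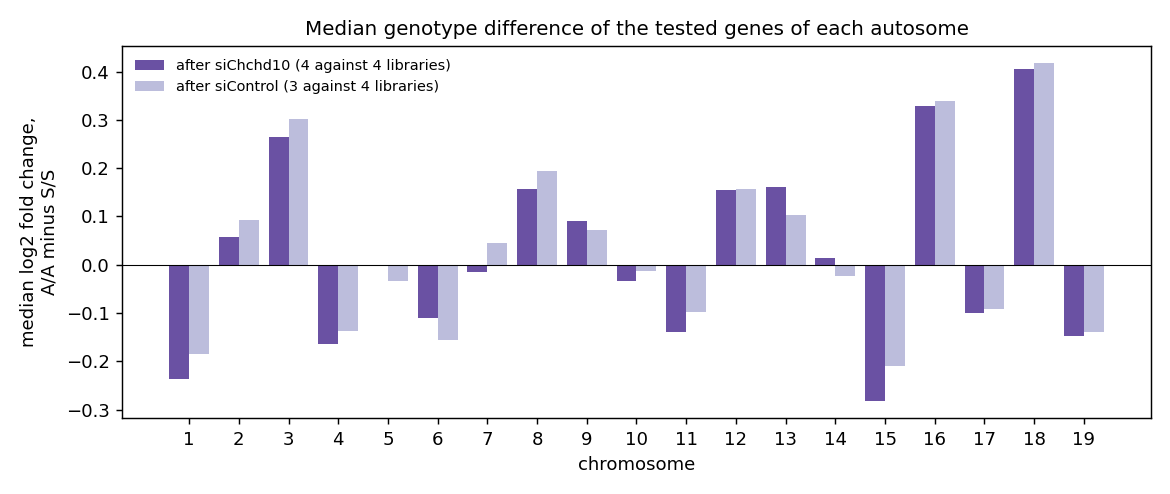
Median log2 fold change of A/A over S/S for the tested genes of each autosome, after siChchd10 (dark bars) and after siControl (light bars, without A/A siControl replicate 1). Chromosomes 18, 16 and 3 stand highest and 15, 1 and 4 lowest in the siChchd10 libraries.

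How far these genotype differences depended on the knockdown was asked with the siControl libraries. A/A siControl replicate 1 was left out, in which S/S-type RNAs such as Serpine2 lay above the other A/A siControl libraries, so 3 A/A and 4 S/S libraries entered. Of 17802 autosomal genes tested, 12108 (68.0%) differed between the genotypes with siControl. The 3549 genes that differed by 2-fold or more after siChchd10 had the same sign with siControl in 3431 cases (96.7%), and 3151 of these were called there too. Medians of gene lists did not all keep their sign. After siChchd10 and with siControl they were 0.26 and -0.86 for liver-type plasma proteins and -0.52 and 0.29 for collagens. They were -0.45 and 0.04 for laminins and integrins, and -0.54 and 0.025 for hypoxia genes. Others kept it, such as complement genes (1.44 and 1.47) and chemokines (-0.80 and -1.07). Across 16548 genes, which are not independent replicates, the log2 differences had a Pearson r of 0.912. The test of the difference itself, the interaction over 15 libraries, called 6189 genes (34.8%), 1022 of them (5.74%) by 2-fold or more.

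Among the genes the rule named from the interaction, the surfactant gene Sftpa1 stood out: in siControl cells it was at 0.146 CPM in S/S and 0.656 CPM in A/A cells, and after siChchd10 at 0.187 and 20 CPM (interaction 4.51, SE 0.536, adjusted p = 2.3e-07). Sftpc moved by 4.46, from low counts, whereas the interaction for Sftpb was 0.33 and did not pass the test (adjusted p = 0.27). C3 was lower in A/A cells by -4.67 with siControl and by -2.36 after siChchd10 (interaction 2.32, SE 0.27). Hp, haptoglobin, was lower by -3.46 and by -0.97 (interaction 2.50, SE 0.195). Fga, a fibrinogen chain, was lower by -3.60 with siControl and by -0.73 after siChchd10, where 1 A/A library at 16.8 CPM lay above the S/S library at 16.6 CPM (interaction 2.89, SE 0.279). These secreted proteins thus stood nearer between the genotypes after the knockdown.

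Among the genes so named, 2 changed sign, each called in both conditions. Itga7, a laminin receptor, was higher in A/A cells by 0.92 with siControl, and after siChchd10 it was at 23, 22.5, 21.1 and 20.9 CPM in S/S and at 8.31, 7.44, 9.91 and 8.84 CPM in A/A libraries, a difference of -1.35 (interaction -2.25, SE 0.105, adjusted p = 9.9e-15). Slc4a11, a membrane transporter of the bicarbonate carrier family, went from 0.82 to -1.38 (interaction -2.18, SE 0.0953). After siChchd10 both were lower in all A/A than in all S/S libraries. For Cfap69, a protein of cilia and flagella, the difference after siChchd10 was -0.08 (SE 0.194) and did not pass the test (adjusted p = 0.744).

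**Figure D5:**
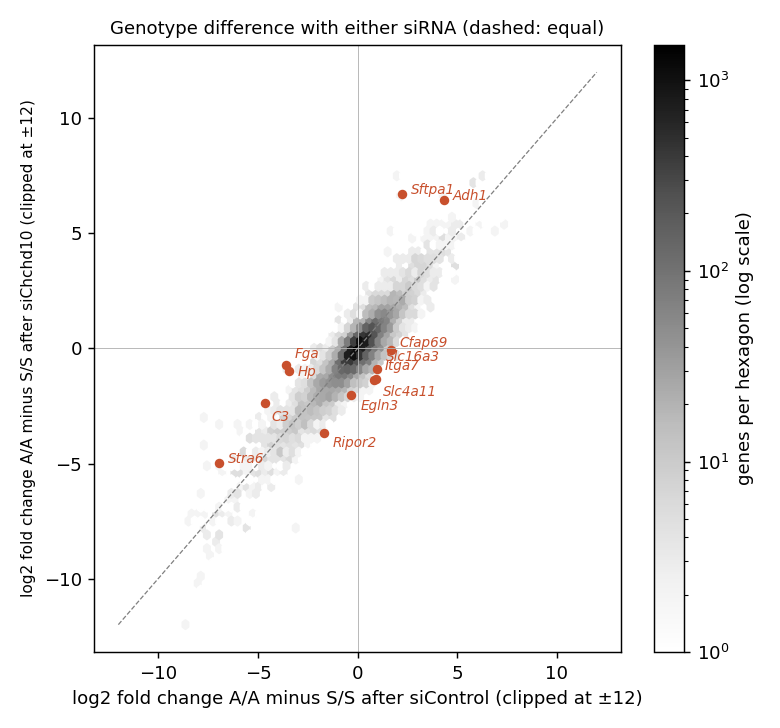
Log2 fold change of A/A over S/S after siControl (x axis) and after siChchd10 (y axis) for the genes tested in both, as counts of genes per hexagon, with the 12 genes named from the interaction in orange. Most genes lie along the dashed line of equality (r of 0.912), Sftpa1 lies above it, and Itga7 and Slc4a11 lie to the right of 0 and below 0.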

How the data were processed

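Polyadenylated RNA of cultured tumour cells was prepared as stranded TruSeq libraries and sequenced on a NovaSeq, per the labels' protocols. The deposited values are raw whole-number counts of each gene. The submitters' processing notes name mm10 and DESeq2 1.24.0. The aligner, counter and strand setting were not stated in the sources used here. Close copies and overlapping genes are therefore uncertain. All 39310 symbols matched the GRCm38.p6 annotation.

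Counts were tested with edgeR 4.0.16 in R 4.3.3 (filterByExpr, TMM, robust quasi-likelihood test, Benjamini-Hochberg adjustment over 17125 genes, threshold 0.05) on the 8 siChchd10 libraries alone. The 577 genes off the autosomes were tested but are not reported. The filter left out 5975 genes with no count in these libraries, among others. The siControl and interaction tests used 15 libraries. The script was tested on simulated data. Intervals at the 95% level and the floor of 3 counts cover counting error only. Named genes had separate libraries and were the largest or most abundant differences overall or within each list, beside 10 genes always named and the 6 largest interactions in each direction, for which separation was not required. Asns, Chac1, Trib3 and the Cyp2c genes were named for their promoters, and Cdh1, Hspa5 and Xbp1 after their values were seen. The comparison, the lists and the rule were chosen with earlier results of these data known. Alternatives were RLE or no scaling, DESeq2 1.42.0, other filters, a minimum fold, more libraries in the fit, a replicate block and leaving out each library. Some items are not reported here.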

Additional observations from a re-analysis of the deposited data

Results flagged for a closer look

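The genes below are given because the genotype difference itself changed with the siRNA. The interaction, A/A minus S/S after siChchd10 less the same difference with siControl, was 4.51 for Sftpa1, 2.89 for Fga, 2.50 for Hp, 2.32 for C3 and 2.12 for Adh1. It was -2.25 for Itga7, -2.18 for Slc4a11 and -1.72 for Cfap69. Each passed the adjusted threshold of 0.05.

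In 14 of 296 groups of 4 libraries, 1 library lay far from the other 3, and chance alone would do so in about 1 of 20 groups. S/S replicate 4 was high for Clu (2781 CPM against 2458 to 2473), H1f0 (432 against 401 to 405 CPM) and Cd14 (44.0 against 41.1 to 41.5 CPM), and low for Ddr2 (1.92 against 2.46 to 2.49 CPM). S/S replicate 3 was low for Hp (30.1 against 40.2 to 41.3 CPM) and S/S replicate 1 for Ccne1 (9.86 against 12.3 to 12.7 CPM). S/S replicate 2 was high for Dnajb9 (22.2 against 20.6 to 20.7 CPM) and Eif2ak2 (38.9 against 35.6 to 35.8 CPM). A/A replicate 2 was high for Cyp2c68 (63.4 against 50.8 to 52.7 CPM), Gdf15 (67.0 against 62.9 to 63.1 CPM) and Muc1 (14.6 against 13.2 to 13.5 CPM). It also held both A/A counts of Serpine2 (0.0387 CPM, the others at 0). A/A replicate 1 was low for Chchd2 (318 against 349 to 355 CPM) and A/A replicate 3 for Eif2ak2 (26.7 against 28.8 to 29.2 CPM).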

How the results depend on the processing

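Under 17 alternatives, 2495 of 2514 values of the named genes kept their direction and their side of the threshold. The 15 that lost the call did so under a test against a minimum fold of 1.5, which asks for more than a difference and called 4421 genes in place of 11829, 2102 higher and 2319 lower. Asking for a mean of at least 1 CPM left fewer genes, and 2109 in place of 3549 were called at 2-fold or more. Under that filter, with fewer members, the medians of the alveolar type 1 and neuroendocrine lists changed sign. The first was -0.30 in place of 0.30, and the second 0.81 in place of -0.74 over 7 tested genes. Of 2856 counts and medians of the gene lists under all alternatives, 2681 stayed within set limits. Beyond those limits 172 moved, and 3 medians lost their sign. With 1 library left out, Cfap69, which did not pass the test, ranged from -0.207 to 0.041, above 0 without S/S replicate 1, S/S replicate 2 or A/A replicate 2, and the median of the cholesterol genes from -0.059 to 0, at 0 without S/S replicate 1. Leaving out 1 library at a time gave 11611 to 11722 genes called and 3727 to 3787 at 2-fold or more. DESeq2 called 12323 genes over 32003 tested. No scaling beyond total counts moved the median by -0.007. The count columns number the libraries as sets in both genotypes. No pairing by this number was seen: deviations of same-numbered libraries correlated at 0.17, -0.18, -0.20 and -0.073. Of 8 libraries, 1 correlated best with its own number. These weak correlations cannot show how the samples were handled. With a replicate block 11663 genes were called and 3552 at 2-fold or more. Without the filter on low counts 32003 genes were tested, of which 13327 were called, 5283 at 2-fold or more.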
